A study of Mus musculus with 12 samples.

Results

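The nuclear genes for subunits of the mitochondrial respiratory chain were followed in sorted spinal cord microglia. The animals were Biozzi ABH mice. The subunit genes were taken as the protein-coding genes whose GENCODE M21 symbols begin with the names of the subunits of complexes I to V (the Nduf, Sdh, Uqcr, Cox4 to Cox8 and Atp5 families). This naming rule, which leaves out the complex I subunit Ndufab1, gave 84 genes of the 48526 in the count table: 35 of complex I, 4 of complex II, 8 of complex III, 20 of complex IV and 17 of complex V, on 19 chromosomes. Ndufa4 and its relative Ndufa4l2 were placed with complex IV, to which Ndufa4 belongs. Microglia, the resident macrophages of the central nervous system, had been gated as CD11b-positive, CD45-intermediate and Ly-6C-negative cells. There were 4 groups of 3 mice, all of that strain. One was the control group. The other three had crEAE, the chronic-relapsing form of experimental autoimmune encephalomyelitis, in which an autoimmune attack on the central nervous system is induced, and were in its acute, remission or chronic phase. The labels name no treatment of the control mice and no age or sex.

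Complex I takes electrons from NADH and complex II takes them from succinate, and both pass them to ubiquinone. Complex III moves them on to cytochrome c, complex IV hands them to oxygen, and complex V, the ATP synthase, uses the proton gradient that complexes I, III and IV build up. Most subunits are encoded in the nucleus, made in the cytosol and imported, while complexes I, III, IV and V also hold subunits encoded by mitochondrial DNA. Macrophages and microglia are known for shifting between respiration and glycolysis when they are activated.

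Total counts were 3992885 to 5712376 per library, of which 1266782 to 2496096 lay outside the 6 most abundant features and the mitochondrially encoded genes, and 2636 to 5135 lay on the 84 subunit genes. The 6 most abundant features took 48.3 to 56.2% of the counts in control, 62.4 to 64.1% in acute, 56.4 to 60.4% in remission and 56.4 to 62.7% in chronic libraries, so that acute and control did not overlap, and the part of this in the results was not tested. Levels are given as CPM, counts scaled to a common library size by the trimmed mean of M values (TMM), and a log2 fold change is followed by its standard error (SE). A gene was called at an adjusted p under 0.05 in edgeR's quasi-likelihood test. The adjustment (Benjamini-Hochberg) ran over the 12545 genes that passed a filter on low counts. Of the 84 subunit genes, 69 passed: 30 of complex I, all 4 of complex II, all 8 of complex III, 12 of complex IV and 15 of complex V. Ndufa1, Uqcr10, Cox5a and Atp5mpl passed only through the acute libraries, so their differences from the other groups were partly fixed by the filter. The p-values measure the spread between 3 mice a group, and replicate numbers follow the order of the records and pair no mice.

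In the acute group the summed level of every complex was above control in every library. The summed level of the 84 genes was 642, 727 and 735 CPM in the control libraries and 1332, 1334 and 1259 CPM in the acute ones, 1.87 times the control mean with no overlap. In remission it was 819, 711 and 700.2 CPM, and in the chronic phase 893, 857 and 1091 CPM, where replicate 3 stood above the other two. Of the 69 genes tested, 42 were higher in acute than in control mice and 0 were lower, against 23.7% of all tested genes higher and 20.0% lower. Ndufab1, which the naming rule leaves out, was called lower and is given below with the electron carriers. The median log2 fold change was 0.89 over the 69 genes and 0.02 over all genes tested. A count of 0 lower was also given by DESeq2, while 1 gene was lower at an unadjusted p under 0.05 and 1, Ndufb2, by limma-voom. The libraries of both groups did not overlap for 49 subunit genes that were higher and 2 that were lower, where 30.0% and 26.7% of all tested genes did so. Without the 4 genes that passed the filter only through the acute libraries, 38 of the other 65 were called higher.

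With library totals alone as the scale, which moved the median of all genes from 0.02 to -0.53, 22 subunit genes were higher and 3 (Ndufb2, Atp5j2 and the factor Atp5s) were lower in acute mice. The split of all calls moved with it, from 54.3% to 22.8% higher. The subunit median then stood at 0.34, which is 0.87 above the median of all genes, as it was with TMM scaling (0.87).

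**Figure D1:**
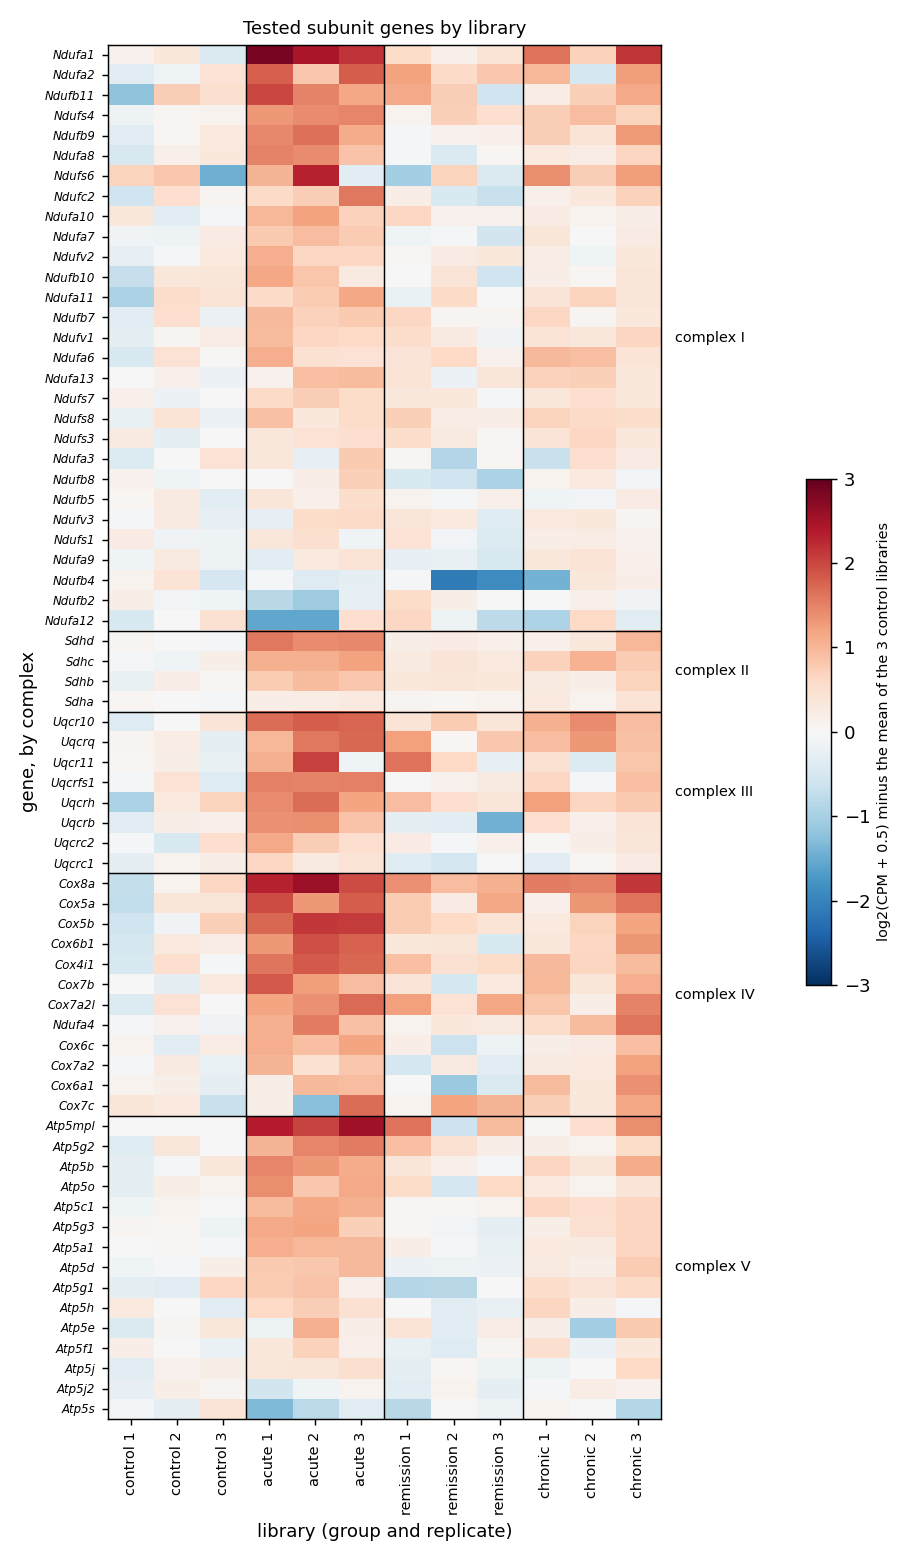
Level of 68 of the 69 tested subunit genes (rows, by complex and by fold change) in each of the 12 libraries (columns), as log2(CPM + 0.5) minus the mean of the 3 control libraries. The 3 acute columns are red for most genes of every complex, the remission columns are mostly pale, and chronic replicate 3 is redder than the other chronic libraries.

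The acute libraries also differed in cell markers, and these values stand beside every comparison with the acute group. All 10 microglial markers tested were lower. Their summed level was 6509 to 7368 CPM in control and 999 to 1733 CPM in acute libraries, and none was at 0. All 10 monocyte markers were higher, summing to 8.53 to 42.1 CPM in control, 1484 to 2216 CPM in acute, 8.23 to 22.5 CPM in remission and 11.7 to 29.1 CPM in chronic libraries. Ly6c2 and Chil3 had no count in control mice. Of 9 neutrophil markers tested 8 were higher. Without Csf3r, which the control libraries also carried, the list summed to 0.350 to 0.569 CPM in control and 124.2 to 417 CPM in acute libraries, with 7 markers at 0 in control. All 4 tested T and NK cell markers were higher (0 to 0.526 against 47.1 to 78.9 CPM). Of 6 oligodendrocyte markers 5 were too (68.0 to 85.2 against 419 to 536 CPM). Summed levels of border macrophage markers were 0.711 to 0.876 against 65.8 to 113 CPM, those of erythroid markers 1.08 to 2.99 against 19.3 to 69.3 CPM and those of astrocyte markers 21.8 to 26.5 against 135 to 174 CPM. Endothelial markers summed to 4.32 to 5.08 CPM in control, 15.3 to 18.4 CPM in acute, 8.50 to 18.8 CPM in remission and 20.1 to 55.6 CPM in chronic libraries. The lists of B cells, dendritic cells and neurons overlapped or lay lower in acute than in control libraries. The part of these cells and of their RNA in the subunit levels was not tested, and in sorted bulk RNA a change in the mix of cells and a change per cell cannot be told apart. In remission and chronic libraries no monocyte sum was above the highest control library, replicate 3 at 42.1 CPM. The other control libraries held 8.53 and 9.29 CPM, below every chronic sum and below remission replicates 1 (22.5 CPM) and 3 (10.9 CPM). In both phases 6 of 10 microglial markers were lower than in control mice. Remission replicate 1 held 662 CPM of the oligodendrocyte list and 57.0 CPM of the neutrophil list without Csf3r. It also had the highest subunit sum of its group. Chronic replicate 3, with the highest subunit sum of the chronic group, held 11.99 CPM of that neutrophil list against 1.36 and 0.180 CPM in replicates 1 and 2. Its monocyte sum (29.1 CPM) was the highest of its group, and its oligodendrocyte (61.2 CPM) and endothelial (20.1 CPM) sums were the lowest. Its 6 most abundant features took 62.7% of the counts, the highest share of its group. The part of these in its subunit sum was not tested.

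The promoters were read to see which letters these genes share. RefSeq windows on GRCm38.p6, from 250 bases before to 50 bases after the start, were found for 68 of the 84 genes. NRF1, a transcription factor known for respiratory genes, has a motif of GCGCA, any base (N) and then GCGC. On either strand it lay in 25.0% of the subunit promoters and in 7.17% of the promoters of all 17492 genes in the table. The YY1 motif AAGATGGCG lay in 10.3% against 2.14%, the ERR motif TCAAGGTCA in 2.94% against 0.377%, the GABPA (ETS family) motif CCGGAAGT in 7.35% against 5.69% and CCAAT in 44.1% against 42.3%. At least 1 of the NRF1, YY1 and GABPA motifs was present in 39.7% of subunit and 13.9% of all promoters, and the median number of CpG dinucleotides was 19 against 13. Of the tested genes with such a motif, 11 of 23 were higher in acute mice, and of those with a promoter in the table and no such motif, 20 of 34. A partner gene with a start on the opposite strand within 1000 bases was annotated for 36.9% of the 84 genes and for 10.8% of 21951 protein-coding genes. A motif match is a description of the letters in the window, not a bound site.

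The windows of 4 genes are shown, chosen with their calls known. Sdhd (1 NRF1 match) and Sdha (3 NRF1 matches) belong to the same complex. Sdhd was called higher in acute mice and Sdha was not, and whether they differ in response was not tested. Cox8a, with 2 GABPA matches, and Atp5b, with none of the 3 motifs, were both called higher. The windows are examples and test no link of motif and response. They lie at chr9:50603800-50604099 (minus strand), chr13:74350191-74350490 (minus), chr19:7217567-7217866 (minus) and chr10:128083057-128083356 (plus) of GRCm38.p6, and are written 5′ to 3′ along the gene with the matches to NRF1, YY1 and GABPA in capitals, while ERR and CCAAT matches stay in lower case. The NRF1 match of Sdhd begins 79 bases before the start, those of Sdha begin 98, 55 and 10 bases before it, and the GABPA matches of Cox8a begin 6 bases before and 32 bases after it.
Sdhd: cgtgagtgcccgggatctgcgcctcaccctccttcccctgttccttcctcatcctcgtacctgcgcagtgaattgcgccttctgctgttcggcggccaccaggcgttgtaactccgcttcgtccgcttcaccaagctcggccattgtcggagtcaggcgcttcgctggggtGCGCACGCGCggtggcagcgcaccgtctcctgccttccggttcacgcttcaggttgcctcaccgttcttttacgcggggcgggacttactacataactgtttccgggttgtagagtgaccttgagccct
Sdha: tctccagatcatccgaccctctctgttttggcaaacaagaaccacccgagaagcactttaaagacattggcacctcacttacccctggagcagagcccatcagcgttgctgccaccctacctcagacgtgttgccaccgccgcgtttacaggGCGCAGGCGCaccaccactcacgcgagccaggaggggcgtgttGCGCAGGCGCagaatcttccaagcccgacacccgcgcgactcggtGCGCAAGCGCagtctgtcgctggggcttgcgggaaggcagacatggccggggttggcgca
Cox8a: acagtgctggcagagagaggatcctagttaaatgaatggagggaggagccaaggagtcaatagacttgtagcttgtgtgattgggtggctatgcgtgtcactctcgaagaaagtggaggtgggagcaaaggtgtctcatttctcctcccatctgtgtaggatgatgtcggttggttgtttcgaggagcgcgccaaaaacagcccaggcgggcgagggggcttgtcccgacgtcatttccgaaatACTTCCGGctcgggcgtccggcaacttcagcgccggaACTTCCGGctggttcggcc
Atp5b: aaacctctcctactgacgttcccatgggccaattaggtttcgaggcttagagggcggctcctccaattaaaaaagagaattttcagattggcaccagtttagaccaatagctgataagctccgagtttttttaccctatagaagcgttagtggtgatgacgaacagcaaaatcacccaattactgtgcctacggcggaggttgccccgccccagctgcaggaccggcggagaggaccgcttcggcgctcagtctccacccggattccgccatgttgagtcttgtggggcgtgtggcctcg

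Complex I, the entry point for NADH, had 15 of 30 tested genes higher in acute mice and 0 lower, with a median log2 fold change of 0.75 and a summed level of 199, 221 and 212 CPM in control and 343, 343 and 323 CPM in acute libraries. The count was 7 higher without control replicate 1, and 2 were lower without acute replicate 3. The 0 lower holds for the genes of the naming rule, which leaves out Ndufab1, a complex I subunit that was called lower. Ndufa1 (chrX:37187588-37191163), a small accessory subunit encoded on the X chromosome, stood at 0.569, 0.701 and 0.216 CPM in control, 6.49, 4.80 and 3.85 CPM in acute, 0.923, 0.574 and 0.797 CPM in remission and 2.50, 1.08 and 3.83 CPM in chronic libraries. The acute libraries lay above all others except that chronic replicate 3 nearly met the lowest of them, and the log2 fold change to control was 3.24 ± 0.60 (SE, adjusted p = 0.000168). Ndufa1, among the 15 higher genes, passed the filter only through the acute libraries, so this difference was partly fixed by the filter. Ndufb9 (chr15:58933756-58939488), an accessory subunit of the membrane arm, went from 3.98, 5.43 and 6.47 CPM to 15.05, 17.3 and 11.9 CPM, a log2 fold change of 1.49 ± 0.28 (SE, adjusted p = 0.0002). Ndufs4 (chr13:114287795-114388258), an accessory subunit whose loss causes complex I deficiency in mice, stood at 2.84, 3.33 and 3.45 CPM in control and 8.56, 9.32 and 9.78 CPM in acute libraries, 1.52 ± 0.29 (SE, adjusted p = 0.000275) on the log2 scale. Both genes were separated fully between the groups.

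Among the 7 nuclear-encoded core subunits of complex I, which carry its flavin and iron-sulfur clusters, 5 were higher, by smaller steps. Ndufv1, which accepts the electrons of NADH, went from 9.33 ± 1.75 CPM to 15.6 ± 2.22 CPM (mean ± SD, n = 3) and Ndufs8 (chr19:3908863-3912774), which hands electrons towards ubiquinone, from 10.6 ± 2.83 CPM to 15.97 ± 3.24 CPM. Their adjusted p in edgeR was 0.0112 and 0.0438. Ndufs8 kept its call in 9 of 21 alternative settings only. Ndufs1, the largest iron-sulfur subunit, was at 25.7, 20.3 and 19.6 CPM in control and 27.8, 30.6 and 19.9 CPM in acute libraries, which overlapped, and the log2 fold change of 0.25 ± 0.21 (SE, adjusted p = 0.352) was not called. Of the 23 tested accessory subunits 10 were higher, among them Ndufa8 (1.36 ± 0.30 (SE, adjusted p = 0.00111) on the log2 scale) and Ndufa10 (0.97 ± 0.21, SE, adjusted p = 0.00097). Ndufb2, an accessory subunit of the membrane arm that is named here after its values were seen, went the other way, from 5.83, 4.73 and 4.53 CPM to 2.59, 2.13 and 4.15 CPM, a log2 fold change of -0.78 ± 0.35 (SE, adjusted p = 0.0753) that was not called. Of its exonic bases 7.9% are shared with the counted genes Braf, Gm16272 and Gm42420, and the counts do not separate strands.

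Complex II is also the succinate dehydrogenase of the tricarboxylic acid cycle and holds no subunit encoded in the mitochondrion. Of its 4 genes, Sdhb, Sdhc and Sdhd were higher in acute mice and Sdha was not called. Sdhd (chr9:50596357-50603812), a membrane anchor, was at 10.5, 9.81 and 9.49 CPM in control, 30.6, 27.2 and 27.9 CPM in acute, 11.3, 11.9 and 11.2 CPM in remission and 11.1, 12.6 and 20.1 CPM in chronic libraries. The acute libraries stood apart from all 9 others, with chronic replicate 3 the nearest, and the log2 fold change to control was 1.52 ± 0.21 (SE, adjusted p = 5.82e-06). Sdhc (chr1:171127165-171150603), the other anchor, went from 6.40, 5.96 and 7.55 CPM to 14.3, 14.4 and 16.01 CPM (1.17 ± 0.22, SE, adjusted p = 0.000194). Sdhb (chr4:140961203-140979193), the iron-sulfur subunit, went from 19.2, 26.1 and 23.1 CPM to 38.7, 44.0 and 39.7 CPM (0.84 ± 0.16, SE, adjusted p = 0.000262). Sdha (chr13:74322254-74350280), the flavoprotein that oxidises succinate, was at 52.6, 50.6 and 49.0 CPM in control and 58.4, 58.9 and 62.0 CPM in acute libraries. These did not overlap either, but the log2 fold change of 0.23 ± 0.12 (SE, adjusted p = 0.128) did not pass, and with library totals alone it was -0.33. Whether Sdha and Sdhd differ in their response was not tested.

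In complex III, the step from ubiquinol to cytochrome c, 7 of 8 genes were higher in acute mice. Uqcrfs1 (chr13:30540308-30545362), the Rieske iron-sulfur protein and the one redox subunit among the 8, was at 8.11, 11.4 and 6.26 CPM in control, 24.9, 24.2 and 24.6 CPM in acute, 8.31, 9.18 and 10.1 CPM in remission and 13.2, 8.10 and 16.1 CPM in chronic libraries. The acute libraries lay within a narrow range above the 9 others, 1.51 ± 0.25 (SE, adjusted p = 4.38e-05) over control on the log2 scale. Among the small subunits, Uqcrh (chr4:116066965-116075071), the hinge protein, went from 1.85, 5.08 and 6.69 CPM to 11.7, 14.1 and 9.78 CPM (1.43 ± 0.35, SE, adjusted p = 0.0026). Uqcrq (chr11:53427922-53430831) went from 1.56, 1.75 and 1.08 CPM to 3.37, 5.33 and 5.93 CPM (1.69 ± 0.45, SE, adjusted p = 0.00442). Uqcr10 (chr11:4701973-4704342) went from 0.427, 0.701 and 1.08 CPM to 3.37, 3.73 and 3.56 CPM (2.29 ± 0.54, SE, adjusted p = 0.00166). Both were separated fully between the groups at low counts. Uqcr10, among the 7 higher genes, passed the filter only through the acute libraries, so its difference was partly fixed by the filter. The subunit with the highest control level per kilobase of transcript, the core protein Uqcrc1 (chr9:108936633-108949623), stood at 37.3, 49.4 and 51.6 CPM in control and 70.0, 55.1 and 61.1 CPM in acute libraries, and its log2 fold change of 0.44 ± 0.17 (SE, adjusted p = 0.047) was called but turned to -0.11 with library totals alone. For the other core protein, Uqcrc2 (chr7:120635176-120659524), it was 0.79 ± 0.22 (SE, adjusted p = 0.00571), with 19.7% of its exonic bases shared with Pdzd9 on the opposite strand.

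Complex IV, cytochrome c oxidase, had the highest ratio of acute to control summed level of the 5 complexes, from 43.7, 61.3 and 55.5 CPM in control to 143, 161 and 157 CPM in acute libraries, 2.88 times the control mean. That ratio was 1.60 for complex I, 1.60 for complex II, 1.78 for complex III and 1.99 for complex V. The differences between complexes were not tested. Of the 12 tested genes 9 were higher and the median log2 fold change was 1.51. Among the 9 was Cox5a, which passed the filter only through the acute libraries. Cox4i1 (chr8:120668222-120674207), the common isoform of subunit 4, was at 9.96, 19.98 and 13.4 CPM in control, 43.6, 50.9 and 46.8 CPM in acute, 26.2, 19.1 and 20.5 CPM in remission and 27.7, 22.0 and 27.3 CPM in chronic libraries. No acute library came near any other, and the log2 fold change to control was 1.71 ± 0.21 (SE, adjusted p = 1.30e-06). Cox4i1 shares 9.9% of its exonic bases with Emc8 on the opposite strand, and the counts do not separate strands. Cox8a (chr19:7215153-7217616), the common isoform of subunit 8, was at 1.56, 3.15 and 4.75 CPM in control, 16.3, 19.7 and 12.7 CPM in acute, 8.31, 5.93 and 6.64 CPM in remission and 9.31, 9.003 and 14.3 CPM in chronic libraries. It was the one subunit called higher than control in all 3 phases, with log2 fold changes of 2.42 ± 0.33 (SE, adjusted p = 5.93e-06) in acute, 1.20 ± 0.35 (SE, adjusted p = 0.032) in remission and 1.82 ± 0.34 (SE, adjusted p = 0.000649) in chronic mice.

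Cox5b (chr1:36691449-36693681) went from 1.71, 2.63 and 4.96 CPM in control to 10.6, 14.1 and 13.9 CPM in acute libraries, a log2 fold change of 2.10 ± 0.35 (SE, adjusted p = 6.34e-05). Cox6b1 (chr7:30616861-30626151) went from 2.28, 4.38 and 4.10 CPM to 9.34, 14.7 and 13.04 CPM, 1.80 ± 0.35 (SE, adjusted p = 0.000292). Both are accessory subunits around the catalytic core, which is itself encoded in the mitochondrion. Ndufa4 (chr6:11900292-11907497), a complex IV subunit first assigned to complex I, had a log2 fold change of 1.33 ± 0.38 (SE, adjusted p = 0.00681). Cox7a2l (chr17:83501918-83517330), a relative of subunit 7a that joins complexes III and IV in supercomplexes, had one of 1.49 ± 0.35 (SE, adjusted p = 0.00164). The common isoforms of subunits 6a and 7a were not called in acute mice: Cox6a1 was at 5.97, 6.31 and 4.53 CPM in control and 6.49, 11.5 and 11.0 CPM in acute libraries (0.77 ± 0.34, SE, adjusted p = 0.0751). Cox7a2 was at 1.71, 2.28 and 1.51 CPM and 4.15, 2.66 and 3.56 CPM (0.90 ± 0.48, SE, adjusted p = 0.133). The isoforms known from other tissues were at or near the detection limit in every group and were not tested. Cox4i2 (lung type) had 7 counts over the 12 libraries, Cox6a2, Cox7a1 and Cox8b (heart and muscle) had 54, 29 and 10, Cox6b2 (testis) had 20, and Cox7b2 and Cox8c (testis) had none. Ndufa4l2, known as hypoxia-induced, had 6 counts, none of them in acute or remission libraries.

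In complex V, the ATP synthase, 8 of 15 tested genes were higher in acute mice, 6 of the 8 tested genes for the catalytic head, the rotor and the membrane ring and 2 of 6 for the stalk and other accessory subunits. Atp5b (chr10:128083273-128090391), the catalytic beta subunit, had the highest control level of the 84 genes per kilobase of principal transcript, 38.8 CPM per kilobase, and in acute mice it stood at 94.2 CPM per kilobase. Its levels were 60.6, 69.9 and 92.4 CPM in control, 202, 181 and 158 CPM in acute, 93.8, 80.7 and 70.1 CPM in remission and 115, 94.5 and 158 CPM in chronic libraries. Chronic replicate 3 reached the lowest acute library, and the log2 fold change of acute to control was 1.29 ± 0.19 (SE, adjusted p = 2.94e-05). Atp5a1, the alpha subunit of the head, was at 68.8, 70.3 and 65.6 CPM in control, 145, 137 and 135 CPM in acute, 79.0, 65.8 and 58.2 CPM in remission and 84.2, 82.1 and 107 CPM in chronic libraries, with a log2 fold change of 1.02 ± 0.13 (SE, adjusted p = 3.44e-06). Atp5c1 (chr2:10056016-10080510), the rotor shaft, was at 24.2, 28.2 and 26.8 CPM in control, 51.1, 59.4 and 55.4 CPM in acute, 27.5, 26.8 and 28.4 CPM in remission and 40.6, 37.8 and 41.3 CPM in chronic libraries. Its libraries fell into 3 separate levels, with control and remission together, chronic above them and acute on top, and the log2 fold change of acute to control was 1.07 ± 0.13 (SE, adjusted p = 1.68e-06). The difference of chronic to remission was not called for Atp5c1. In that comparison 9.42% of all tested genes were higher with no overlap of libraries.

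The membrane ring is built from subunit c, for which there are 3 nuclear genes whose mature proteins are the same. Atp5g2 (chr15:102662864-102672352) went from 4.69, 7.89 and 6.26 CPM in control to 12.97, 17.9 and 19.0 CPM in acute libraries (1.41 ± 0.27, SE, adjusted p = 0.000234). Atp5g3 (chr2:73908447-73911326) went from 9.81, 9.64 and 8.20 CPM to 20.8, 21.6 and 15.4 CPM (1.06 ± 0.21, SE, adjusted p = 0.00042). Atp5g1 (chr11:96068852-96075670) went from 2.70, 2.63 and 5.61 CPM to 6.23, 6.66 and 3.85 CPM, which overlapped, and was not called (0.65 ± 0.39, SE, adjusted p = 0.193). Annotated transcripts of other genes match 88.2% of the Atp5g2 transcript and 20.0% of the Atp5g1 transcript at 95% identity or more, so counts of this family are uncertain. For Atp5g2 these were 2 pseudogenes with 1 count against 529 for the gene. For Atp5g1 they were 50 genes, 2 of them pseudogenes, with 53587 counts against 223. The subunits of the peripheral stalk that were not called were Atp5f1, Atp5h and Atp5j, with log2 fold changes of 0.41 ± 0.21, 0.60 ± 0.27 and 0.39 ± 0.22, whereas Atp5o, which ties the stalk to the head, was higher (1.23 ± 0.33, SE, adjusted p = 0.00498). These 4 genes and the next are named after their values were seen. Atp5mpl, a small proteolipid, had the largest log2 fold change of the complex, 2.83 ± 0.60 (SE, adjusted p = 0.000657), from 0.853, 0.876 and 0.863 CPM to 6.49, 5.06 and 7.41 CPM. It passed the filter only through the acute libraries, so this difference and its call were partly fixed by the filter.

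**Figure D2:**
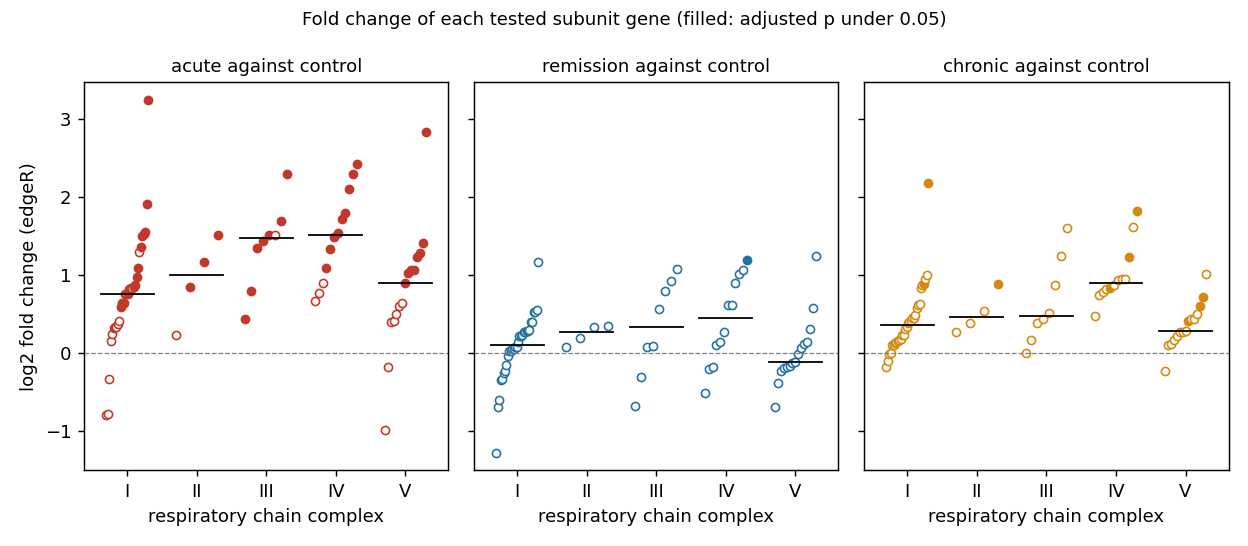
Log2 fold change (edgeR, vertical axis) of each of the 69 tested subunit genes against control, by complex (horizontal axis), in acute, remission and chronic mice. Filled points have an adjusted p under 0.05 and the bar is the median of the complex. In acute mice 42 points are filled and the medians run from 0.75 in complex I to 1.51 in complex IV, in remission 1 point is filled, and in chronic mice 9 are.

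In remission few subunits differed from control. Only Cox8a was called higher and 0 genes were called lower in edgeR (percent of all tested genes called: 6.06 higher and 3.25 lower), with 4 higher and 1 lower at an unadjusted p under 0.05 and 0 lower by DESeq2 and limma-voom. The median log2 fold change was 0.12 over the 69 genes and 0.01 over all genes, and the summed level was 1.06 times the control mean. Libraries did not overlap for 6 subunit genes that were higher and 3 that were lower, against 14.4% and 13.8% of all tested genes. The Cox8a call was lost without control replicate 1 or 2, without remission replicate 1 or 3 and with library totals alone. Against the acute group, remission was lower for 36 of the 69 genes and higher for 1, where 19.4% of all tested genes were lower and 17.6% higher, with medians of -0.82 and -0.01. Among the 36 were Ndufa1, Uqcr10 and Atp5mpl of complexes I, III and V. They passed the filter only through the acute libraries, so their falls were partly fixed by the filter. Of the 42 genes that were higher in acute than control mice, 31 were among these 36, and as both comparisons use the same acute libraries the overlap is no independent result. With library totals alone, 21 were lower.

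Lower in remission than in acute mice were 9 of 30 tested genes of complex I, 3 of 4 of complex II, 5 of 8 of complex III, 8 of 12 of complex IV and 11 of 15 of complex V. The count of complex V was 5 without remission replicate 2, 6 without acute replicate 1 and 7 without acute replicate 2, and that of complex III was 3 without acute replicate 1. Atp5a1 and Atp5c1 fell by 1.03 ± 0.14 and 1.01 ± 0.13 (SE) on the log2 scale, at adjusted p = 5.84e-06 and 7.07e-06 in edgeR. Sdhd fell from 30.6, 27.2 and 27.9 CPM to 11.3, 11.9 and 11.2 CPM, a log2 fold change of -1.32 ± 0.21 (SE, adjusted p = 4.92e-05). Uqcrb, a small subunit of complex III, fell from 8.56, 8.79 and 5.93 CPM to 2.40, 2.30 and 0.797 CPM (-2.02 ± 0.40, SE, adjusted p = 0.000449). Cox6c of complex IV fell from 18.9, 16.5 and 20.2 CPM to 9.97, 5.36 and 7.70 CPM (-1.27 ± 0.27, SE, adjusted p = 0.000832). Ndufb8 was lower in remission than in acute mice (-1.02 ± 0.26, SE, adjusted p = 0.00429) without having been called higher in acute than control mice (0.34 ± 0.25, SE, adjusted p = 0.282), and the same held for Cox6a1, Atp5f1, Atp5g1 and Atp5h. Ndufb2, whose exons overlap other counted genes, was the one gene that was higher in remission, at 2.59, 2.13 and 4.15 CPM in acute and 7.57, 5.74 and 5.05 CPM in remission libraries (1.06 ± 0.35, SE, adjusted p = 0.0204), a call that was lost without acute replicate 1, acute replicate 2 or remission replicate 1.

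In the chronic phase the summed levels of all 5 complexes had means between those of control and acute mice. Against control 9 genes were higher and 0 lower in edgeR (percent of all tested genes called: 9.57 higher and 5.17 lower), with 27 higher and 0 lower at an unadjusted p under 0.05 and 0 lower by DESeq2 and limma-voom. The 9 were Ndufa1 and Ndufb9 of complex I, Sdhc of complex II, Cox4i1, Cox8a and Ndufa4 of complex IV, and Atp5a1, Atp5b and Atp5c1 of complex V, and none was of complex III. The median log2 fold change was 0.44 over the 69 genes and -0.01 over all genes. Libraries did not overlap for 24 genes that were higher and 0 that were lower, against 16.5% and 15.8% of all tested genes. The largest changes were those of Ndufa1, 2.18 ± 0.62 (SE, adjusted p = 0.0208), and Cox8a. Atp5c1 rose from 24.2, 28.2 and 26.8 CPM to 40.6, 37.8 and 41.3 CPM (0.60 ± 0.13, SE, adjusted p = 0.00361) and Sdhc rose from 6.40, 5.96 and 7.55 CPM to 10.9, 14.04 and 11.5 CPM (0.88 ± 0.22, SE, adjusted p = 0.00765). The 9 calls became 3 (Sdhc, Cox8a and Atp5c1) without control replicate 1, 4 without chronic replicate 3, and 2 (Ndufa1 and Cox8a) with library totals alone.

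Against the acute group, 18 genes were lower in chronic mice and 0 higher, where 15.5% of all tested genes were lower and 13.3% higher, with a median of -0.47 over the 69 genes. In this comparison 1 gene was higher at an unadjusted p under 0.05 and 0 by DESeq2 and limma-voom. The 18 lower genes included Uqcrfs1 (adjusted p = 0.00386), Sdhd (-0.98 ± 0.20, SE, adjusted p = 0.00114) and Cox5b (-1.31 ± 0.34, SE, adjusted p = 0.00611). Atp5mpl was also among them. It passed the filter only through the acute libraries, so its fall was partly fixed by the filter. The count of lower genes was 7 without chronic replicate 2, 8 without chronic replicate 1, 9 without acute replicate 1 or acute replicate 2, 7 with the number in the sample titles as a covariate and 6 with library totals alone. Between chronic and remission mice only Cox6a1 was called, at 5.54, 2.30 and 3.98 CPM in remission and 11.1, 7.02 and 15.05 CPM in chronic libraries (1.46 ± 0.35, SE, adjusted p = 0.0458), in a comparison where 0.941% of all tested genes were higher and 0.263% lower. It kept that call in 7 of 21 alternative settings. At an unadjusted p under 0.05, 16 subunit genes were higher and 0 lower in chronic than remission mice. DESeq2 called 2 higher and limma-voom 0. Libraries did not overlap for 19 that were higher and 0 that were lower, against 9.42% and 8.42% of all tested genes.

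**Figure D3:**
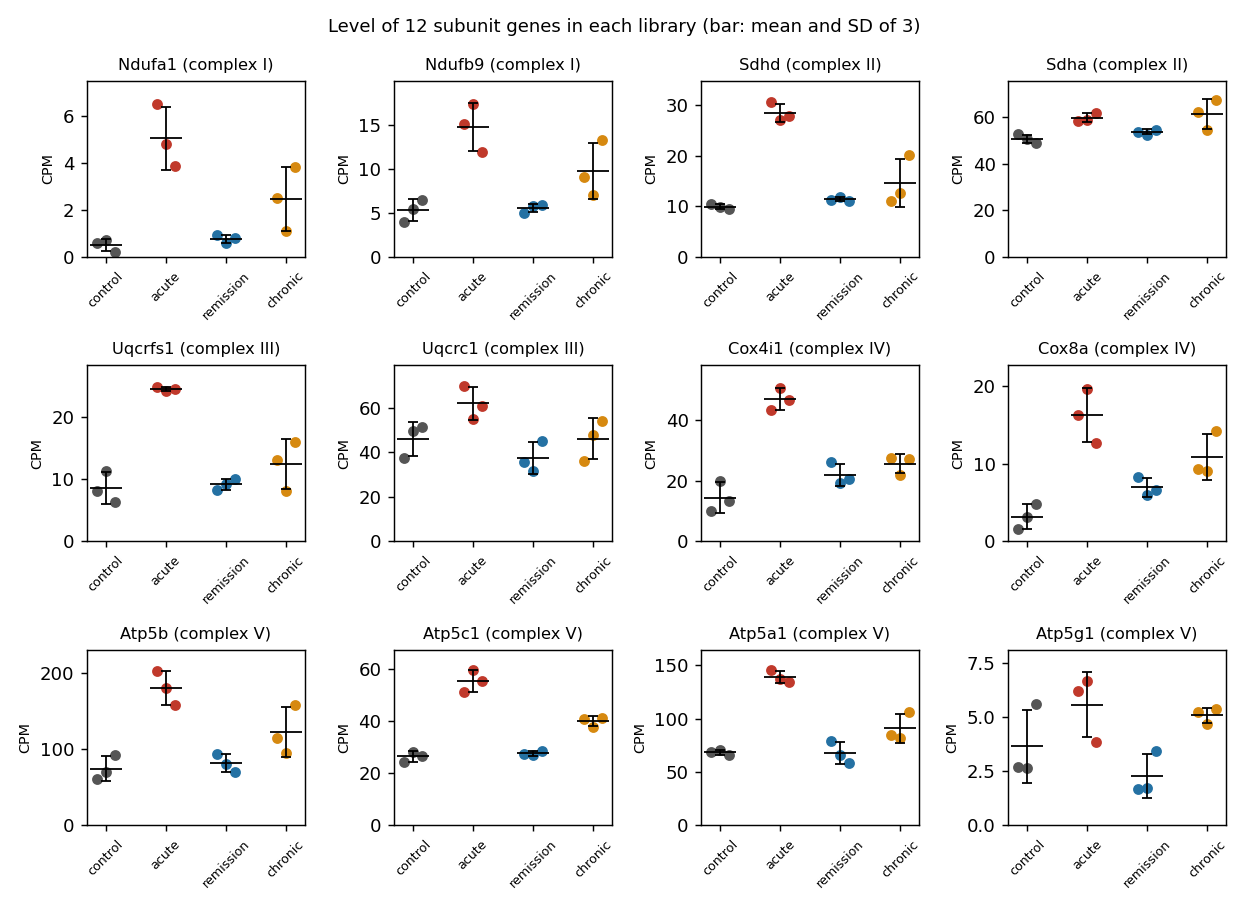
Level in CPM (vertical axis, from 0) of 12 subunit genes in each library of the 4 groups (horizontal axis). Points are libraries and bars the mean and SD of 3. The acute points of Sdhd, Uqcrfs1, Cox4i1, Atp5c1 and Atp5a1 lie above every other library, Sdha hardly moves, and in Atp5g1 the acute and control points overlap.

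Other genes of the pathway were counted in lists. The 13 mitochondrially encoded subunits, the partners of these genes in complexes I, III, IV and V, were all higher in acute mice, with a median log2 fold change of 2.07. They summed to 731, 758 and 1111 CPM in control, 3401, 3229 and 4242 CPM in acute, 2027, 1369 and 2193 CPM in remission and 2467, 1474 and 2610.1 CPM in chronic libraries. Of all tested genes 23.7% were higher than control in acute, 9.57% in chronic and 6.06% in remission mice. Of the 13 subunits, all were also higher in chronic mice and 11 in remission. The chronic count was 8 without control replicate 2 or chronic replicate 3. In remission it was 5 without control replicate 1 or control replicate 2, and 7 without remission replicate 1, remission replicate 3 or chronic replicate 1. The summed nuclear over the summed mitochondrial level was 0.833 ± 0.154 (SD, n = 3) for control mice. It was 0.367 ± 0.0619 in the acute phase, 0.414 ± 0.100 in remission and 0.454 ± 0.114 in the chronic phase. In remission 1 of the 69 nuclear genes was higher than control, and the difference between both sets was not tested.

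Of 37 tested assembly factors, which build the complexes and are not part of them, 3 were higher and 3 lower in acute mice (median -0.16). The count of lower ones was 0 without control replicate 2 or acute replicate 2, and 1 without control replicate 1 or acute replicate 3. Coa5, a factor of complex IV, rose from 33.3, 33.1 and 38.0 CPM to 101, 109 and 85.1 CPM (adjusted p = 2.86e-07 in edgeR). Cox16 and Cox17, also factors of complex IV, fell by 1.40 and 0.58 on the log2 scale, at adjusted p = 0.0234 and 0.0415 in edgeR. Of 67 tested mitochondrial ribosomal proteins, which translate the mitochondrially encoded subunits, 7 were higher and 2 lower (median 0.09), and their summed level was 403, 399.5 and 397 CPM in control and 424, 432 and 409.9 CPM in acute libraries. The count of higher ones was 3 without control replicate 1 or acute replicate 2. Against the 23.7% of all tested genes that were higher, these are shares of 8.11% and 10.4%, while the share of the subunits was 60.9%. The differences between lists were not tested. With library totals alone, 1 assembly factor was higher and 13 lower, and 0 ribosomal proteins were higher and 17 lower.

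The list of the tricarboxylic acid cycle, which supplies electrons, also holds Pdha1, Pdhb and Dlat of the pyruvate dehydrogenase complex. Of its 17 tested genes 8 were higher and 1 lower in acute mice (median 0.51). These are shares of 47.1% and 5.88%, where 23.7% and 20.0% of all tested genes were called. Cs, citrate synthase, rose from 23.8, 21.6 and 31.7 CPM to 63.0, 61.0 and 56.9 CPM (1.24 ± 0.20, SE, adjusted p = 6.28e-05). Idh3a, of the NAD-linked isocitrate dehydrogenase, rose by 1.31 ± 0.24 (SE, adjusted p = 0.000171) on the log2 scale, while Idh2, the NADP-linked enzyme, went the other way (-1.29 ± 0.17, SE, adjusted p = 2.40e-06). Of 20 tested electron carriers and feeders, 2 were higher and 1 lower (median 0.14), shares of 10% and 5%, both under those of all genes. The higher count was 1 without control replicate 2 or 3 or acute replicate 2 or 3, and the lower count 0 without control replicate 1 or acute replicate 3. Gpd2, which feeds electrons of glycerol 3-phosphate to ubiquinone, rose from 5.69, 2.80 and 4.53 CPM to 18.7, 19.7 and 20.7 CPM (2.16 ± 0.27, SE, adjusted p = 1.48e-06). Ndufab1, the acyl carrier subunit that the naming rule for complex I leaves out, fell (-0.94 ± 0.28, SE, adjusted p = 0.00856). Of 13 tested regulators, 2 were higher and 2 lower (median -0.08), a share of 15.4% each, also under those of all genes. The higher count was 1 without control replicate 2 or 3 or acute replicate 2, and the lower count was 1 without control replicate 1 and 0 without acute replicate 2. Ppargc1b, a coactivator of respiratory genes, rose from 1.71, 2.80 and 2.81 CPM to 8.82, 8.53 and 10.1 CPM (1.92 ± 0.32, SE, adjusted p = 5.55e-05). It was also the 1 regulator called higher than control in remission and in chronic mice. The remission count was 0 without control replicate 1. In acute mice Nrf1 had a log2 fold change of -0.08 ± 0.18 (SE, adjusted p = 0.734) and Gabpa one of 0.04 ± 0.17 (SE, adjusted p = 0.886). Atpif1, the inhibitor of the ATP synthase, was not called (0.62 ± 0.37, SE, adjusted p = 0.181). With library totals alone, the counts were 2 higher and 5 lower for the cycle list, 1 and 6 for the carriers and 1 and 8 for the regulators.

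**Figure D4:**
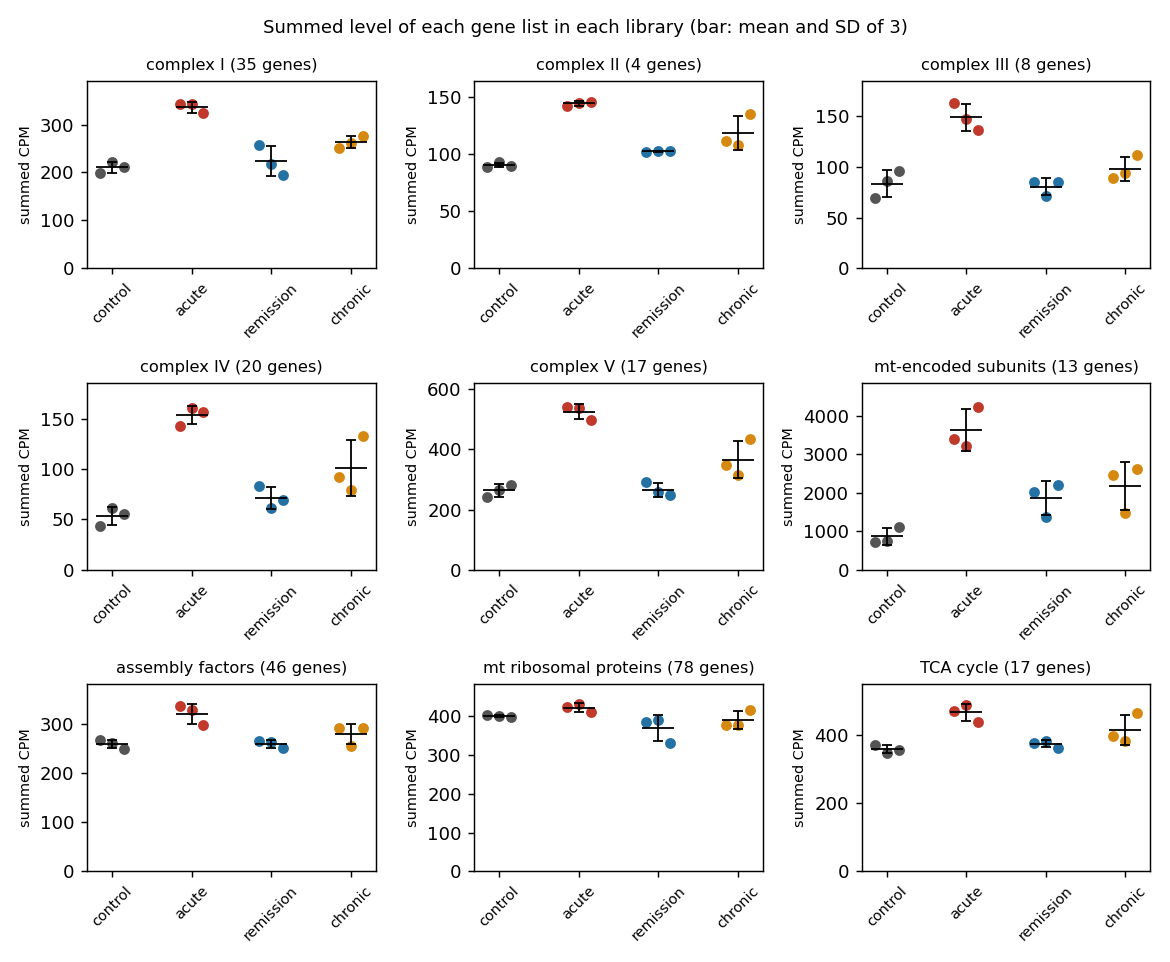
Summed CPM (vertical axis, from 0) of the genes of each complex and of 4 further mitochondrial lists in each library of the 4 groups (horizontal axis). Points are libraries and bars the mean and SD of 3. The acute points of all 5 complexes and of the mitochondrially encoded subunits lie above the control points without overlap, and those of the ribosomal proteins lie close to the control points.

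Length and shared sequence were checked as properties of the counts. The principal transcripts of the 84 genes span 360 to 4715 bases with a median of 764. Across the 69 tested genes, which share their libraries and are not replicates, Spearman's rho of the acute log2 fold change was -0.36 with transcript length. With the control level in CPM, which shares the control libraries with the fold change, it was -0.44. Of the tested genes with a principal transcript under 1000 bases 25 of 40 were higher in acute mice, and of the longer ones 17 of 29. Ndufa1, Uqcr10, Cox5a and Atp5mpl, which passed the filter only through the acute libraries, are among the 25, at 419, 434, 645 and 366 bases. The count of short genes and both values of rho were thus partly fixed by the filter. Exons of 27 genes overlap another counted gene. A copy, taken as an annotated transcript of a gene elsewhere that matches at least 75 bases at 95% identity or more, was found for 25 genes. For Ndufc1 and Atp5g1 these were 36 and 50 genes, of which 0 and 2 are pseudogenes. Among the genes named above, apart from Atp5g1 and Atp5g2, the share of the transcript that such a copy matches was 55.7% for Atp5c1, 76.7% for Atp5o and 77.8% for Atp5h. It was 62.8% for Uqcrb, 43.8% for Uqcr10, 45.1% for Cox5b and 45.9% for Cox6c. For Atp5f1, Cox7a2l and Atp5j it was 52.6%, 31.2% and 10.8%. Of the exonic bases of Atp5o, 35.6% are shared with other counted genes. For Atp5c1 the copies held 43 counts and the gene 2009 over the 12 libraries. These counts were 199 and 427 for Atp5h, 104 and 1108 for Atp5f1, and 94 and 437 for Cox7a2l. Of the tested genes with neither, 25 of 34 were higher in acute mice, and of the others 17 of 35. The 15 genes that did not pass the filter on low counts were Ndufa5, Ndufb3, Ndufb6, Ndufc1, Ndufs5, Ndufa4l2, Cox4i2, Cox6a2, Cox6b2, Cox7a1, Cox7b2, Cox8b, Cox8c, Atp5k and Atp5l, and without a filter 39 of 82 genes with a count were higher in acute mice.

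The acute calls were also followed across settings. Of the 42, 21 were kept in all 21 alternative settings and 30 in all 12 that leave out a library, where the count of higher genes ran from 32 to 43.

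**Figure D5:**
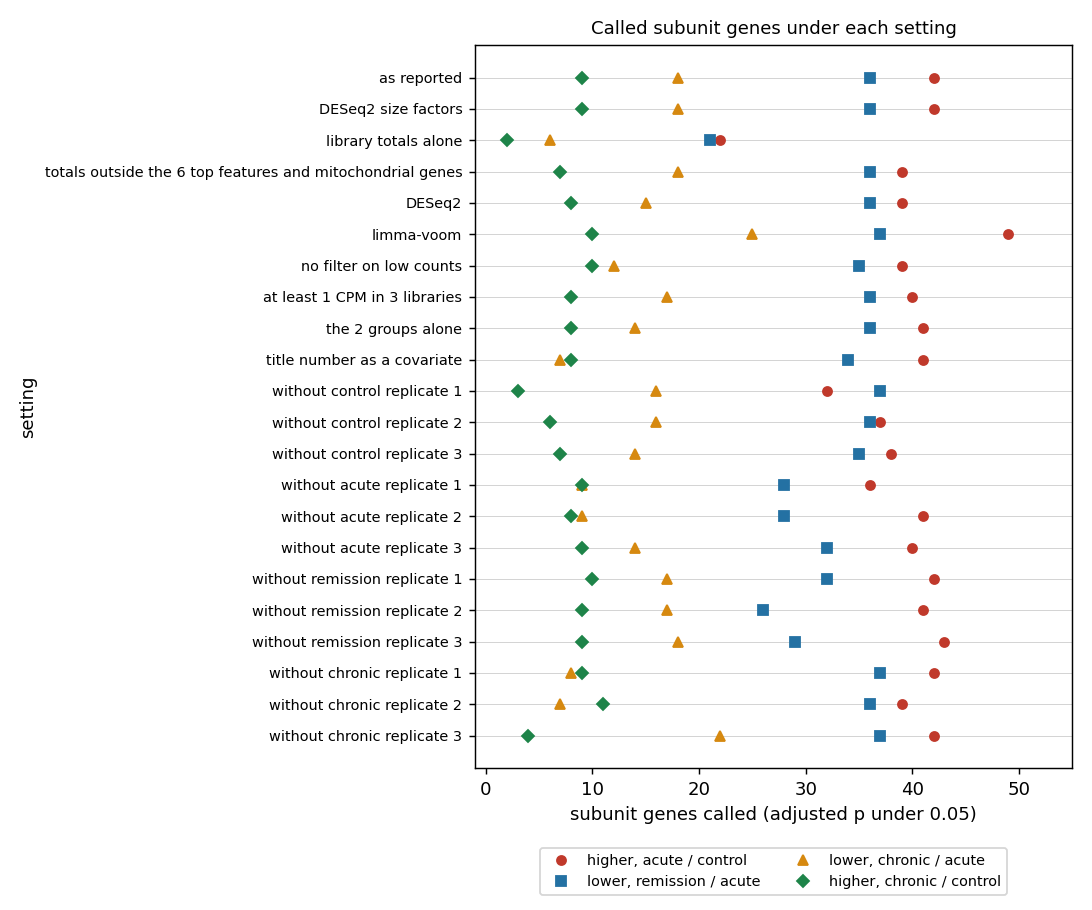
Number of subunit genes called at an adjusted p under 0.05 (horizontal axis) in 4 comparisons, under the settings reported and under each of 21 alternatives (vertical axis). The acute count stays between 32 and 49 except with library totals alone, where it is 22. When a single library is left out, the count lower in chronic than acute mice runs from 7 to 22.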

How the data were processed

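RNA of 12 libraries, 3 mice in each of 4 groups, had been made with random hexamers and a kit that does not keep strand, and was sequenced in single reads of 75 bases, per the labels' protocols. The authors deposited raw counts per gene. HISAT2, SAMtools 1.3.1, Picard 2.6.4, HTSeq 0.6.1 and GRCm38 are named in the submitters' processing notes, and the counting settings and annotation release are not given in the sources used here. Reads that overlap 2 genes, or match copies, may have been dropped or split.

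Counts were scaled by TMM, filtered with filterByExpr (about 2.18 CPM in at least 3 libraries and 15 counts in all) and fitted as 1 model of 4 groups with the robust quasi-likelihood test of edgeR 4.0.16 in R 4.3.3. The 6 comparisons were adjusted by the Benjamini-Hochberg method over 12545 genes, at 0.05. The SE is the log2 fold change divided by the root of its F value. Alternatives were DESeq2 1.42.0, limma-voom (limma 3.58.1), other scalings and filters, the 2 groups alone, the title number and leaving out each library. The fit was tested on simulated data. Annotation was GENCODE M21, promoters came from RefSeq (GRCm38.p6), and copies were searched with blastn 2.17.0.

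The members and lists were chosen with earlier results of these data known. Genes named in each complex are up to 4 called ones with the smallest p in acute against control mice, up to 2 further ones with the smallest p in another comparison, the 2 with the highest control level per kilobase of exon (or of principal transcript, added after seeing the data) and the isoform pairs. Pathway lists name up to 3 genes of smallest p. Others were named after their values were seen. Some single genes are not reported here.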

Additional observations from a re-analysis of the deposited data

How the results depend on the processing

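With library totals alone the counts were 22 higher and 3 lower in acute than control mice, 0 higher and 2 lower in remission than control, 2 higher in chronic than control, 21 lower in remission than acute, 6 lower in chronic than acute and 0 higher in chronic than remission mice. That scale moved the median of all genes by over 0.1, to -0.53 in acute, -0.24 in remission and -0.37 in chronic against control, and it turned Uqcrc1 in acute mice to -0.11. The cause was not tested. In acute mice limma-voom gave 1 lower. In remission against control, no filter gave 3 higher and the 2 groups alone gave 2. In chronic against acute mice, the title number as a covariate gave 7 lower. In chronic against remission mice, DESeq2 gave 2 higher, no filter gave 3, and limma-voom, totals outside the 6 top features and mitochondrial genes, the 2 groups alone and the title number each gave 0.

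Leaving out 1 library at a time gave 32 to 43 higher and 0 to 2 lower in acute than control mice, 0 to 2 and 0 to 1 in remission than control, 3 to 11 and 0 to 0 in chronic than control, 0 to 1 and 26 to 37 in remission than acute, 0 to 1 and 7 to 22 in chronic than acute, and 0 to 2 and 0 to 0 in chronic than remission mice. Calls kept in all 21 alternatives were 21 of 42, 18 of 36 in remission against acute, 5 of 18 in chronic against acute and 1 of 9 in chronic against control. Replicate numbers are in the order of the records. No paired analysis was possible because the labels give no number that links mice across groups.

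With 3 mice a group and 2636 to 5135 counts on all 84 genes in a library, small changes of genes with few counts were not detectable.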
